A study of Mus musculus with 8 samples.

Results

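The hypoxia-inducible factor pathway was followed through 10 genes, all of them found among the 12367 genes of the deposited table: the factor's own subunit Hif1a, its oxygen sensor Egln1, and the hypoxia-induced targets Ndrg1, P4ha1, Higd1a, Ero1l, Mxi1, Kdm3a, Hilpda and Ddit4. They were picked by name, but with earlier results of these data known, so no test was made over the list. Polyadenylated RNA had been sequenced from alveolar macrophages, the resident macrophages of the lung air spaces, which were sorted from lungs of untreated mice aged 3 weeks by CD45, F4/80 and CD11c. The KO group was 4 libraries from CD11c-Cre Tfam-fl/fl mice, in which a Cre recombinase under CD11c control acts on floxed alleles of Tfam, the gene of the mitochondrial transcription factor. The WT group was 4 libraries from Tfam-fl/fl mice, which carry the floxed alleles and no Cre. A group with Cre and no floxed allele was not analysed here, so Cre and loss of Tfam cannot be told apart. Each library was a pool of 3 to 5 mice, male and/or female, so the 4 replicates of a genotype are different pools of animals.

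Hypoxia-inducible factor is a pair of proteins, an oxygen-labile alpha subunit such as the product of Hif1a or Epas1 and a stable partner, Arnt. With oxygen present, prolyl hydroxylases of the Egln family mark the alpha subunit, the Vhl ubiquitin ligase binds the mark, and the subunit is degraded. Without that mark the pair binds a short core sequence, ACGTG or GCGTG, near its target genes, which serve glucose uptake, glycolysis, mitophagy, blood vessel growth and collagen and lipid handling. The hydroxylases use oxygen that mitochondria also consume. Much of this control acts on protein, and the values here are RNA levels.

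The core sequence lies in the promoter windows of many members, and 4 windows are printed because they belong to the factor, its sensor and the pair of targets whose difference between genotypes held in all 21 alternative settings. They are RefSeq sequences of build GRCm38.p6, from 250 bases before to 50 after a transcript start, on the strand of the gene, and capitals mark ACGTG or GCGTG read on either strand. They lie at chr12:73907617-73907916 (plus strand) for Hif1a, chr8:124949205-124949504 (minus strand) for Egln1, chr14:45318523-45318822 (minus strand) for Ero1l and chr19:53329163-53329462 (plus strand) for Mxi1.
Hif1a: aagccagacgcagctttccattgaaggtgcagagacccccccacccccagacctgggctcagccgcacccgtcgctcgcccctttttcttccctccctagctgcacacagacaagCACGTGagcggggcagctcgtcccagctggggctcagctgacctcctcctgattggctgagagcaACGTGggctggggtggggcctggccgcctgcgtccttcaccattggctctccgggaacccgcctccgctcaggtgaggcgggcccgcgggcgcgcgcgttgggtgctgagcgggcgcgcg
Egln1: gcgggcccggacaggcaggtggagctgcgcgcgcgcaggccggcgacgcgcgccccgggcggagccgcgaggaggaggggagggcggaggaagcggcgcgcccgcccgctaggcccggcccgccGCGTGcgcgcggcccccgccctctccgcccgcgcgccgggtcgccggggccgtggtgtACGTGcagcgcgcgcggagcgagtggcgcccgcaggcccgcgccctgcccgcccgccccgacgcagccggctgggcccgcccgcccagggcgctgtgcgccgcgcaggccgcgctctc
Ero1l: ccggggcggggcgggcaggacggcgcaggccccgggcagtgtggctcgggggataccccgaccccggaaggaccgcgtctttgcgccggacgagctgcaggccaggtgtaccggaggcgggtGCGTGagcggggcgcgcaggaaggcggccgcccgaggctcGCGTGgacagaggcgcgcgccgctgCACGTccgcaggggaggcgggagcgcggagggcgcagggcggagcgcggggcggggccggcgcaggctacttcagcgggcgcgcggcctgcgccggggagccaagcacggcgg
Mxi1: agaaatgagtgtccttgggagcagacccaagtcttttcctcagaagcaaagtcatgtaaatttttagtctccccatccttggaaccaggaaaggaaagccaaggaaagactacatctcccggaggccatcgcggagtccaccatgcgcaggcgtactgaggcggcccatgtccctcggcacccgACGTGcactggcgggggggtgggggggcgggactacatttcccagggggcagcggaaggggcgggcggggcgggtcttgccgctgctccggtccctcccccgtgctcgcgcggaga
The Hif1a window held ACGTG 70 and 134 bases before the start, the second of these inside a palindrome that reads as ACGTG on both strands. The Egln1 window held ACGTG 68 bases and GCGTG 126 bases before the start. The Ero1l window held GCGTG 88 and 128 bases before the start, and ACGTG on the opposite strand 63 bases before it. Mxi1 has 3 RefSeq starts, and the window printed, that of the middle one, held ACGTG 66 bases before its start. Of the Mxi1 windows not printed, that of the first start held 0 cores and that of the last held ACGTG 25 bases before its start.

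RefSeq windows matched 9 of the 10 members, Ero1l under its RefSeq name Ero1a, and gave 14 windows. Windows of nearby starts overlap for Hilpda, Kdm3a and Mxi1, so the 14 are not all separate sequences. For Hilpda, 1 GCGTG lies in both windows and is counted in each. A core on either strand was found in 11 of the 14 windows (78.6%), at least 1 for each of the 9 matched members. ACGTG was found in 9 windows and GCGTG in 8. Over all 32851 windows of the same length, 43.8% held a core, 19.6% held ACGTG and 32.4% held GCGTG. The members' windows were also richer in G and C, with a median GC content of 69.2% against 52.7% over all windows, and a core was found in 69.2% of the 9690 windows with a GC content of at least 60%. TGATGNAAN, the C/EBP-ATF response element, was found on either strand in 0 of the members' windows and in 3.95% of all windows. A match describes letters in a window and is not a measured binding site.

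**Figure D1:**
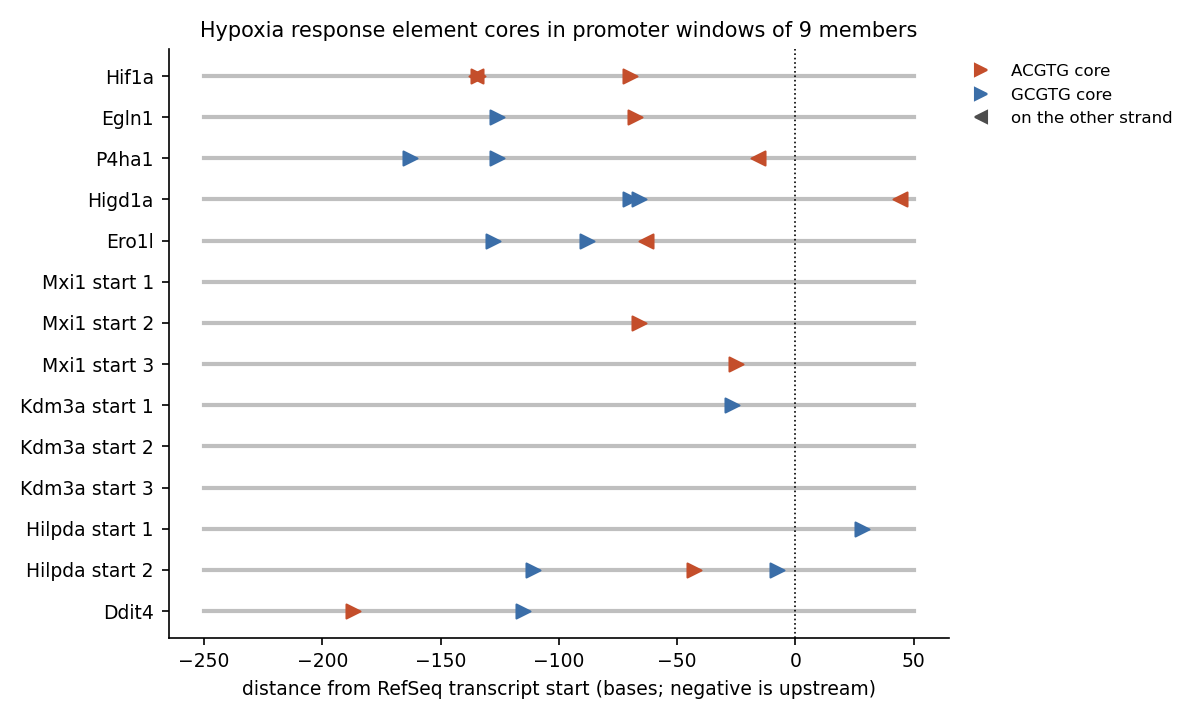
Positions of the core sequences ACGTG and GCGTG in 14 promoter windows of 9 members, by distance in bases from the RefSeq transcript start (dotted line). Triangles pointing right lie on the strand of the gene and triangles pointing left on the other strand. At least 1 core lies in 11 of the 14 windows. Windows of nearby starts overlap for Hilpda, Kdm3a and Mxi1, and 1 GCGTG of Hilpda is drawn in both of its windows.

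The deposited values are normalised, on a per-million-reads scale, and their spacing gave 20243772 to 30263201 reads in the listed genes per KO library and 24776683 to 29161957 per WT library. Tfam averaged 4.35 ± 0.648 in KO and 30.3 ± 3.72 in WT (SD, n = 4 each), a log2 fold change of -2.55 (limma adjusted p = 1.02e-06), with a two-sided exact permutation p of 0.0286, the smallest that 4 against 4 libraries allow. Itgax, which encodes CD11c, averaged 2050 ± 202 in KO and 1094 ± 48.6 in WT, and the other sort markers were lower in KO (Adgre1, 301 ± 22.8 against 476 ± 62.4; Ptprc, 859 ± 19.9 against 1148 ± 70.2). All 15 alveolar macrophage markers examined were in the table, 4 called higher and 6 lower in KO, with a summed level of 37432 to 42840 in KO and 36350 to 38839 in WT that was mostly Chil3 (27808 ± 2465 in KO and 23528 ± 1334 in WT). Among the 6 lower markers, Siglecf was at 194 ± 20.9 in KO and 501 ± 37.6 in WT. Ear1 was at 123 ± 39.3 in KO and 845 ± 112 in WT, and Ear2 fell by 2.26 and Krt79 fell by 1.08 on the log2 scale. The 4 higher markers were Itgax, Car4, Cd68 and Plet1. Car4 was at 1336 ± 190 in KO and 723 ± 122 in WT and Cd68 at 1041 ± 44.1 in KO and 587 ± 35.1 in WT. Plet1 rose by 0.29 on the log2 scale. The other 5, among them Pparg, Mrc1 and Marco, were not called. Of the interstitial macrophage or monocyte markers 6 of 10 were higher in KO, with sums of 260 to 756 in KO and 284 to 690 in WT. Of the dendritic cell markers 4 of 9 were higher, with sums of 207 to 755 in KO and 169 to 279 in WT. WT replicate 3 stood apart in endothelium or fibroblast markers, with a sum of 137 against 29.4 to 36.0 in the other WT libraries and 42.7 to 80.0 in KO. In RNA from whole sorted populations, fewer cells of a type and less RNA per cell cannot be told apart, and the part of these markers in the results below was not tested.

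Of the 10 members, 4 rose in KO (Ero1l, Ndrg1, Mxi1 and Hif1a), 0 fell, and 6 were not called. A gene was called at an adjusted p under 0.05 in a limma fit of log2(value + 1) across all 12163 tested genes, of which 38.7% were called, 18.7% higher and 20.0% lower in KO. All 10 members passed the filter on low values. At an unadjusted p under 0.05, 5 members were higher and 0 lower. The member gained was Ddit4, whose p ranked 4930th among the 12163 tested genes. The share of all tested genes at that unadjusted threshold is not given here, so unadjusted counts of members and lists are descriptive only. The mean was higher in KO for 10 of 10 members, in 4 cases with no overlap between the genotypes, against 18.1% of all tested genes that were higher with no overlap. The members' median log2 fold change was 0.28 (range 0.03 to 0.63), against -0.01 over all tested genes, whose quartiles were -0.21 and 0.21. Same-numbered KO and WT libraries deviated together, and with the replicate number as a block 5 members were called higher and 0 lower, the fifth being P4ha1, in a fit where 46.7% of all tested genes were called and 22.4% were called higher. In 8 of 10 members all 4 same-numbered pairs were higher in KO, against 28.0% of all tested genes. Fold changes on the log2(value + 1) scale understate the difference of genes with low values.

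**Figure D2:**
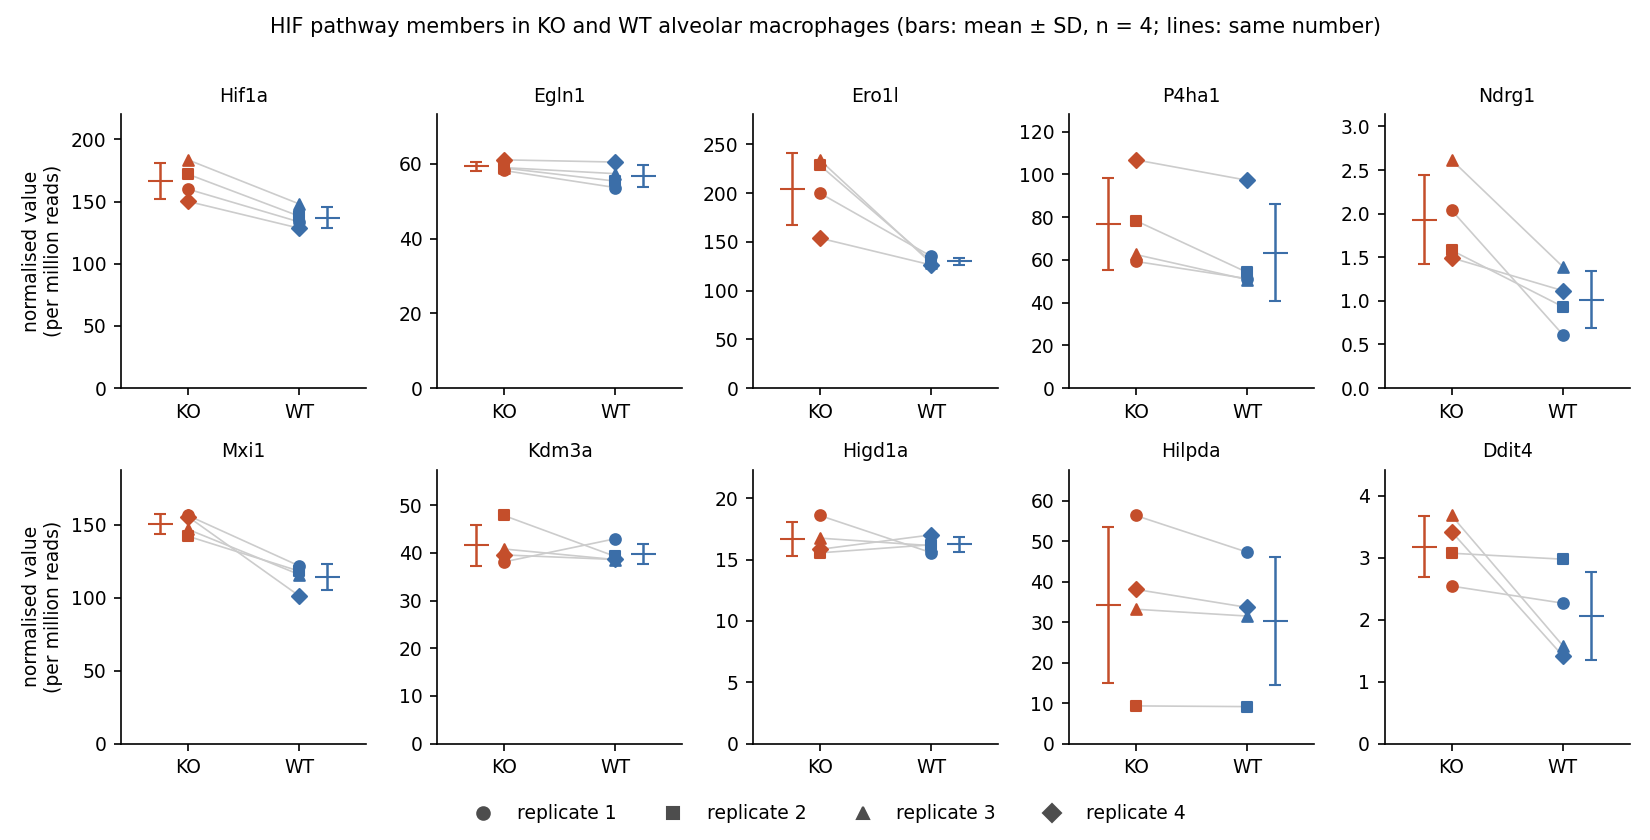
Normalised value (per-million-reads scale) of each member in the 4 KO (left) and 4 WT (right) libraries. Marker shapes give the replicate number, grey lines join same-numbered libraries, and bars are mean ± SD. Ero1l, Ndrg1, Mxi1 and Hif1a show no overlap between genotypes, while Hilpda spans 9.33 to 56.4 within KO alone.

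Hif1a, the oxygen-regulated subunit (ENSMUSG00000021109, GRCm38 chromosome 12, 73901375 to 73947530, plus strand), rose modestly in KO. Its normalised values were 160, 172, 184 and 150 in KO replicates 1 to 4, against 134, 138, 148 and 128 in WT replicates 1 to 4. Every KO library lay above every WT library, and replicate 3 was the highest and replicate 4 the lowest in both genotypes. The mean was 166 ± 14.5 in KO and 137 ± 8.30 in WT, a log2 fold change of 0.28 (SE 0.0716, 95% interval 0.12 to 0.44, limma adjusted p = 0.0128). Without both libraries numbered 2 the difference was 0.26 and no longer called (adjusted p = 0.0746). The Hif1a locus overlaps a second protein-coding gene on the same strand, Gm49321, which the table lists separately at 0.686 to 2.09. The tested genes whose profile over the 8 libraries lay nearest to that of Hif1a, by the root mean square difference of centred log2 values, were Eif2b3 (0.0235), Pomk (0.0417) and Rnf14 (0.0439), among 8617 genes with a mean value of at least 10.

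Egln1 encodes the prolyl hydroxylase PHD2, the main oxygen sensor that marks Hif1a protein, and is itself a hypoxia target (chromosome 8, 124908587 to 124949324, minus strand). Its values were 58.2, 58.9, 59.0 and 61.0 in KO replicates 1 to 4, against 53.6, 55.4, 57.3 and 60.5 in WT replicates 1 to 4. Each KO library exceeded its same-numbered WT library, by 0.981% to 8.52%, but the genotypes overlapped. Means were 59.3 ± 1.23 in KO and 56.7 ± 2.93 in WT, and the log2 fold change of 0.06 was not called (95% interval -0.06 to 0.18, limma adjusted p = 0.380).

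A pair of members act on proteins in the endoplasmic reticulum. Ero1l, an oxidase that renews protein disulphide isomerase and so drives disulphide bond formation (chromosome 14, 45283087 to 45318771, minus strand), had the largest difference of the 10 on the log2(value + 1) scale, though not in the ratio of means, which was 1.91 for Ndrg1 and 1.57 for Ero1l. It was at 200, 229, 234 and 154 in KO replicates 1 to 4, against 135, 130, 128 and 126 in WT replicates 1 to 4. The WT libraries lay within a narrow range and all KO libraries above it, KO replicate 4 by the least. The mean was 204 ± 36.7 in KO and 130 ± 3.84 in WT, a log2 fold change of 0.63 (SE 0.117, 95% interval 0.37 to 0.89, limma adjusted p = 0.00224). KO exceeded WT by 21.8% in the pair numbered 4 and by 48.0%, 75.7% and 82.8% in the pairs numbered 1, 2 and 3.

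P4ha1 encodes the catalytic subunit of the prolyl hydroxylase that matures collagen chains (chromosome 10, 59323296 to 59373304, plus strand). Its values were 59.3, 78.4, 62.5 and 107 in KO replicates 1 to 4, against 51.2, 54.2, 50.8 and 97.3 in WT replicates 1 to 4. The library numbered 4 was far above the others in both genotypes, so that the genotypes overlapped although KO was higher in all 4 pairs, by 9.82% to 44.7%. Means were 76.8 ± 21.7 in KO and 63.4 ± 22.7 in WT, and the log2 fold change of 0.29 was not called (95% interval -0.24 to 0.82, limma adjusted p = 0.369). The same difference was called with the replicate number as a block (SE 0.0692, adjusted p = 0.00878). Leaving out 1 library gave 0.12 (without KO replicate 4, adjusted p = 0.708) to 0.51 (without WT replicate 4, adjusted p = 0.0485), and leaving out both libraries numbered 4 gave 0.34 (adjusted p = 0.0269).

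Another pair of targets act on transcription and chromatin. Mxi1 encodes a repressor that competes with Myc for the partner Max (chromosome 19, 53310518 to 53375810, plus strand), and had the lowest p of the 10. It was at 156, 142, 147 and 156 in KO replicates 1 to 4, against 122, 118, 116 and 101 in WT replicates 1 to 4. All KO libraries lay above all WT libraries, with the widest gap in the pair numbered 4. The mean was 150 ± 6.89 in KO and 114 ± 9.04 in WT, a log2 fold change of 0.39 (SE 0.0662, 95% interval 0.25 to 0.54, limma adjusted p = 0.00123).

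Kdm3a, a histone demethylase that removes methyl groups from lysine 9 of histone H3 (chromosome 6, 71588972 to 71632990, minus strand), was at 38.1, 47.9, 40.8 and 39.6 in KO replicates 1 to 4, against 43.0, 39.3, 38.6 and 38.6 in WT replicates 1 to 4. The genotypes overlapped, and KO was higher in 3 of 4 pairs. Means were 41.6 ± 4.32 in KO and 39.9 ± 2.09 in WT, a log2 fold change of 0.06 (95% interval -0.12 to 0.23, limma adjusted p = 0.615) that was -0.01 without KO replicate 2 and -0.02 without both libraries numbered 2.

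Higd1a encodes a small protein of the inner mitochondrial membrane that associates with the respiratory chain (chromosome 9, 121848563 to 121858362, minus strand). Its values were 18.6, 15.5, 16.7 and 15.8 in KO replicates 1 to 4, against 15.6, 16.2, 16.1 and 17.0 in WT replicates 1 to 4. The genotypes overlapped, with KO higher in 2 of 4 pairs, and the log2 fold change of 0.03 was not called (95% interval -0.13 to 0.20, limma adjusted p = 0.753). Leaving out KO replicate 1 turned it to -0.02.

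Hilpda, a lipid droplet protein that inhibits the triglyceride lipase Pnpla2 (chromosome 6, 29272488 to 29275446, plus strand), varied among libraries far more than between genotypes. It was at 56.4, 9.33, 33.2 and 38.1 in KO replicates 1 to 4, against 47.3, 9.16, 31.5 and 33.7 in WT replicates 1 to 4. The order of the replicates was the same in both genotypes, with number 1 highest and number 2 lowest, a span of 6.04-fold in KO and 5.17-fold in WT. The SD of its log2 values within genotypes was 1.03, the 44th highest of 12163 tested genes, whose median was 0.135. KO exceeded WT in all 4 pairs, by 19.1%, 1.88%, 5.35% and 13.2%. The log2 fold change of 0.13 was not called, with a 95% interval of -1.16 to 1.42 (limma adjusted p = 0.882), nor with the replicate block, where the interval was -0.02 to 0.28 (adjusted p = 0.135). The immediate early list of 10 genes holds Fos, Jun and Egr1, which move with stimulation and handling of cells, and the heat shock genes Hspa1a and Hspa1b. Its summed level was 2089, 492, 1359 and 1707 in KO replicates 1 to 4, against 2467, 911, 2405 and 2707 in WT replicates 1 to 4. The sum was mostly Fos, and it describes the other genes of the list less well. This sum was lowest in replicate 2 of both genotypes, as Hilpda was, and its part in the Hilpda values was not tested.

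The remaining pair are stress-responsive targets with few reads in these cells. Ndrg1, a growth- and stress-regulated protein induced by hypoxia in many cell types (chromosome 15, 66929318 to 66969640, minus strand), was at 2.04, 1.58, 2.62 and 1.49 in KO replicates 1 to 4, against 0.611, 0.932, 1.39 and 1.12 in WT replicates 1 to 4. These values rest on 32 to 51 reads per KO library and 15 to 36 per WT library. The groups did not overlap, though KO replicate 4 lay close to WT replicate 3. The mean was 1.93 ± 0.516 in KO and 1.01 ± 0.327 in WT, and the log2 fold change of 0.54 (SE 0.176, 95% interval 0.15 to 0.94) was called with limma at an adjusted p of 0.0344. Its size depends on the pseudocount, being 0.80 at 0.25 and 0.20 at 5, and 0.92 with voom weights. Leaving out KO replicate 1 (limma adjusted p = 0.0801) or KO replicate 3 (0.100) ended the call, as did leaving out WT replicate 1 (0.0902), WT replicate 2 (0.0790) or both libraries numbered 2 (0.0951), and quantile normalisation (0.0569).

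Ddit4 encodes REDD1, an inhibitor of mTORC1 signalling that is also known as an Atf4 and glucocorticoid target (chromosome 10, 59949669 to 59951834, minus strand). It was at 2.54, 3.08, 3.68 and 3.42 in KO replicates 1 to 4, against 2.27, 2.98, 1.58 and 1.42 in WT replicates 1 to 4, on 41 to 90 reads per library. KO was higher in all 4 pairs, but the genotypes overlapped because WT replicate 2 lay above KO replicate 1. Means were 3.18 ± 0.493 in KO and 2.06 ± 0.715 in WT, and the log2 fold change of 0.47 missed the threshold (SE 0.177, limma adjusted p = 0.0604; 0.22 at a pseudocount of 5). It was 0.61 and called without WT replicate 2 (adjusted p = 0.0218), and 0.62 without both libraries numbered 2 (adjusted p = 0.0473).

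**Figure D3:**
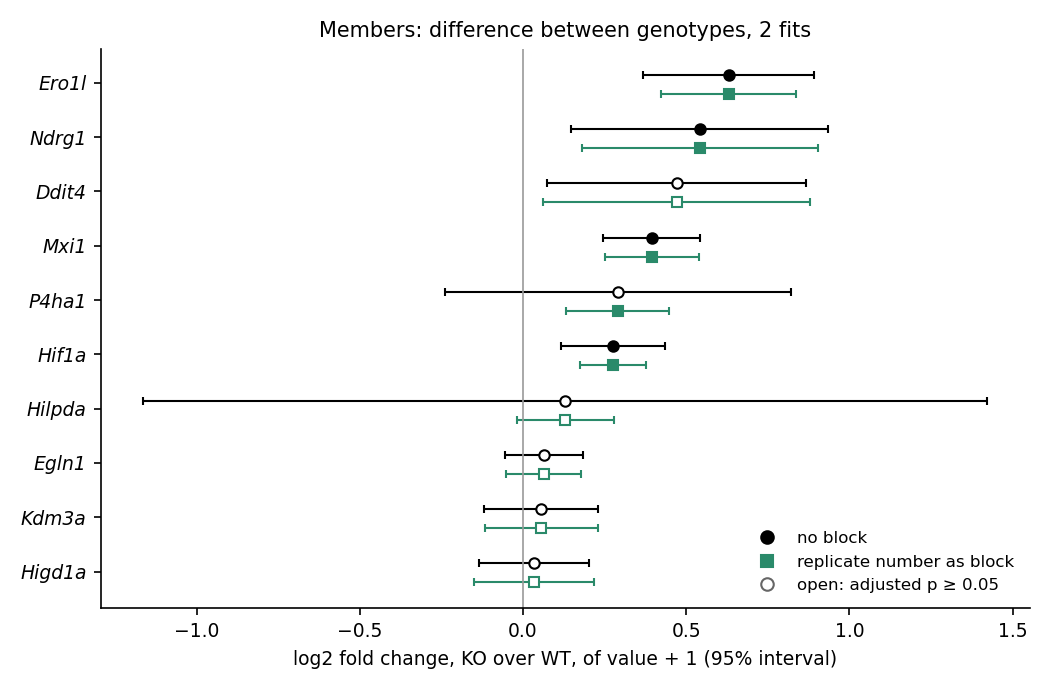
Log2 fold change of each member, KO over WT, of value + 1, with its 95% interval, without a block (black circles) and with the replicate number as a block (green squares). Filled symbols are called at an adjusted p under 0.05. The block narrows the interval most for Hilpda and P4ha1, and P4ha1 alone changes its call, at an adjusted p of 0.00878.

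Set against exon length, the members' levels spanned a wide range. Dividing each normalised value by the union of exons in GENCODE vM21 gave 38.6 ± 6.95 per kilobase in KO and 24.6 ± 0.726 in WT for Ero1l. Hilpda, at 31.1 ± 17.6 per kilobase in KO and 27.6 ± 14.3 in WT, had the second highest mean in KO and the highest in WT, and Hif1a had 28.2 ± 2.46 in KO and 23.2 ± 1.41 in WT. The ranges of these 3 genes over libraries overlapped within each genotype. Mxi1, P4ha1 and Egln1 lay between 16.5 and 22.0 in KO and between 15.4 and 16.8 in WT, and Higd1a and Kdm3a lay near 5 in both genotypes. Ddit4, at 1.81 in KO and 1.17 in WT, and Ndrg1, at 0.293 in KO and 0.154 in WT, were the lowest.

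Among the other subunits and coactivators of the factor, 3 of 6 tested genes rose in KO (50% called, against 38.7% of all tested genes). In this list 0 fell (0 also at an unadjusted p under 0.05), and the median log2 fold change was 0.09. Arnt2, a relative of Arnt that can partner alpha subunits, was at 2.77, 4.40, 3.68 and 2.18 in KO replicates 1 to 4, against 0.138, 0.128, 0.324 and 0.0167 in WT replicates 1 to 4. It was nearly absent from WT, with 14 reads over the 4 libraries against 308 in KO, and its log2 fold change was 1.86 (SE 0.186, limma adjusted p = 5.60e-05), a size that ran from 0.67 at a pseudocount of 5 to 5.02 with voom weights. Epas1, the alpha subunit also called HIF2 alpha, was at 130, 129, 150 and 102 in KO replicates 1 to 4, against 39.2, 41.6, 109 and 32.5 in WT replicates 1 to 4. WT replicate 3 was the one WT library within the KO range. Its endothelium or fibroblast markers summed to 137, against 29.4 to 36.0 in the other WT libraries and 42.7 to 80.0 in KO. The part of such cells in the Epas1 values of either genotype was not tested. The log2 fold change of Epas1 was 1.35 (SE 0.320, limma adjusted p = 0.00821), 1.73 without WT replicate 3 (adjusted p = 3.26e-05), and not called without both libraries numbered 2 (adjusted p = 0.0565). Cited2, an inhibitor that competes with the factor for its coactivators, averaged 64.7 ± 7.65 in KO and 52.9 ± 3.73 in WT (log2 fold change 0.28, limma adjusted p = 0.0316). That call was lost without KO replicate 1 or 3, without WT replicate 2, 3 or 4 and without both libraries numbered 4 (adjusted p of 0.0525 to 0.0826). Arnt itself was at 66.7 ± 2.33 in KO and 71.5 ± 1.78 in WT and was not called (limma adjusted p = 0.141).

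Of 12 tested genes of oxygen sensing and factor turnover, 3 rose and 0 fell (25% called, against 38.7% of all tested genes). At an unadjusted p under 0.05 there were 4 higher and 2 lower. Hif1an, the asparaginyl hydroxylase that blocks coactivator binding, averaged 41.7 ± 2.52 in KO and 32.7 ± 0.922 in WT (log2 fold change 0.34, limma adjusted p = 0.00160). Cul2, the scaffold of the Vhl ligase, averaged 63.8 ± 8.21 in KO and 46.3 ± 0.982 in WT (0.44, limma adjusted p = 0.00293), and Siah2, a ligase that degrades Egln proteins, 20.2 ± 1.5 in KO and 15.6 ± 1.07 in WT (0.35, limma adjusted p = 0.00665, and 0.0619 without both libraries numbered 2). None of these 3 genes overlapped between genotypes. Vhl was at 29.2 ± 1.3 in KO and 28.1 ± 2.43 in WT (limma adjusted p = 0.611), and the hydroxylase Egln2 at 30.1 ± 3.22 in KO and 30.4 ± 0.301 in WT (limma adjusted p = 0.868). Egln3, the most strongly hypoxia-induced of the hydroxylases in many cells, fell under the filter on low values and was not tested. It was at 0.527, 0.255, 0.889 and 0.115 in KO replicates 1 to 4, against 1.48, 1.22, 1.01 and 0.516 in WT replicates 1 to 4, or 37 reads in KO and 111 in WT, lower in KO in each pair with overlapping groups. Without the filter its log2 fold change was -0.51 (limma adjusted p = 0.0908).

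Other hypoxia targets were called in both directions: of 27 tested, 7 were higher and 5 lower in KO. That is 44.4% called, against 38.7% of all tested genes, and the median log2 fold change was 0.05. With the replicate block 11 were higher and 7 lower, in a fit where 46.7% of all tested genes were called. The mitophagy receptor Bnip3 fell to 23.0 ± 2.00 in KO, against 33.7 ± 3.61 in WT (log2 fold change -0.53, limma adjusted p = 0.00142). Its relative Bnip3l was at 428 ± 17.3 in KO and 473 ± 25.6 in WT (-0.14, limma adjusted p = 0.0630, and 0.0394 with the replicate block). Bnip3l was also called lower with quantile normalisation (-0.24, limma adjusted p = 0.00255) and without both libraries numbered 4 (0.0397). Leaving out 1 library gave -0.17 to -0.11 for Bnip3l, called without KO replicate 4 (limma adjusted p = 0.0373) or WT replicate 3 (0.0469). Angptl4, a secreted inhibitor of lipoprotein lipase, fell to 41.7 ± 2.97 in KO, against 104 ± 5.55 in WT (-1.3, limma adjusted p = 1.30e-06). Zfp395 and Ppfia4 fell by 0.95 and 0.97 on the log2 scale. The cytokine Mif rose to 35.6 ± 1.99 in KO, against 23.3 ± 2.39 in WT (0.60, limma adjusted p = 0.000348), and the repressor Bhlhe40 to 453 ± 21.7 in KO, against 310 ± 48.3 in WT (0.56, limma adjusted p = 0.00157). The angiogenic factor Vegfa was at 5.11, 3.69, 6.12 and 2.04 in KO replicates 1 to 4, against 1.36, 0.895, 4.82 and 1.08 in WT replicates 1 to 4. It was higher in KO in every pair, with WT replicate 3 again far above the other WT libraries. Its log2 fold change of 0.88 (0.40 at a pseudocount of 5) was not called (limma adjusted p = 0.0931) but was called with the replicate block (0.00659), without WT replicate 3 (1.25, adjusted p = 0.00698) and without KO replicate 4 (1.12, adjusted p = 0.0414).

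Targets of glucose uptake and glycolysis were mixed as well, with 8 of 20 tested genes higher and 4 lower in KO. That is 60% called, against 38.7% of all tested genes, at a median of 0.08 (log2 fold change). The glucose transporter Slc2a1 had the largest difference, at 49.9 ± 7.47 in KO and 13.5 ± 0.541 in WT (log2 fold change 1.8, limma adjusted p = 2.57e-06). Hexokinase Hk2 averaged 66.5 ± 7.42 in KO and 34.7 ± 4.5 in WT (0.92, limma adjusted p = 0.000155), and the phosphofructokinase Pfkl 68.0 ± 3.18 in KO and 41.8 ± 4.21 in WT (0.69, limma adjusted p = 9.47e-05). The aldolases Aldoa and Aldoc rose by 0.45 and 0.52 on the log2 scale. In the other direction, Pfkfb4, which makes the activator of phosphofructokinase, fell to 135 ± 6.29 in KO, against 176 ± 9.44 in WT (-0.38, limma adjusted p = 0.000564). Ldha, which turns pyruvate into lactate, fell to 414 ± 30.9 in KO, against 485 ± 25.1 in WT (-0.23, limma adjusted p = 0.0183), a call lost without KO replicate 2 (adjusted p = 0.0514), WT replicate 2 (0.0532) or both (0.120). Pdk1, the kinase that closes pyruvate dehydrogenase, was at 69.8, 59.1, 68.7 and 37.6 in KO replicates 1 to 4, against 107, 90.8, 88.5 and 45.5 in WT replicates 1 to 4. It was lower in KO in every pair, and the library numbered 4 was the lowest of each genotype. Its log2 fold change of -0.46 was not called (limma adjusted p = 0.211), but was called with the replicate block (0.000819), without WT replicate 4 (-0.72, adjusted p = 0.0179) and without both libraries numbered 4 (-0.52, adjusted p = 0.00247). Without KO replicate 4 it was -0.26 (adjusted p = 0.447).

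**Figure D4:**
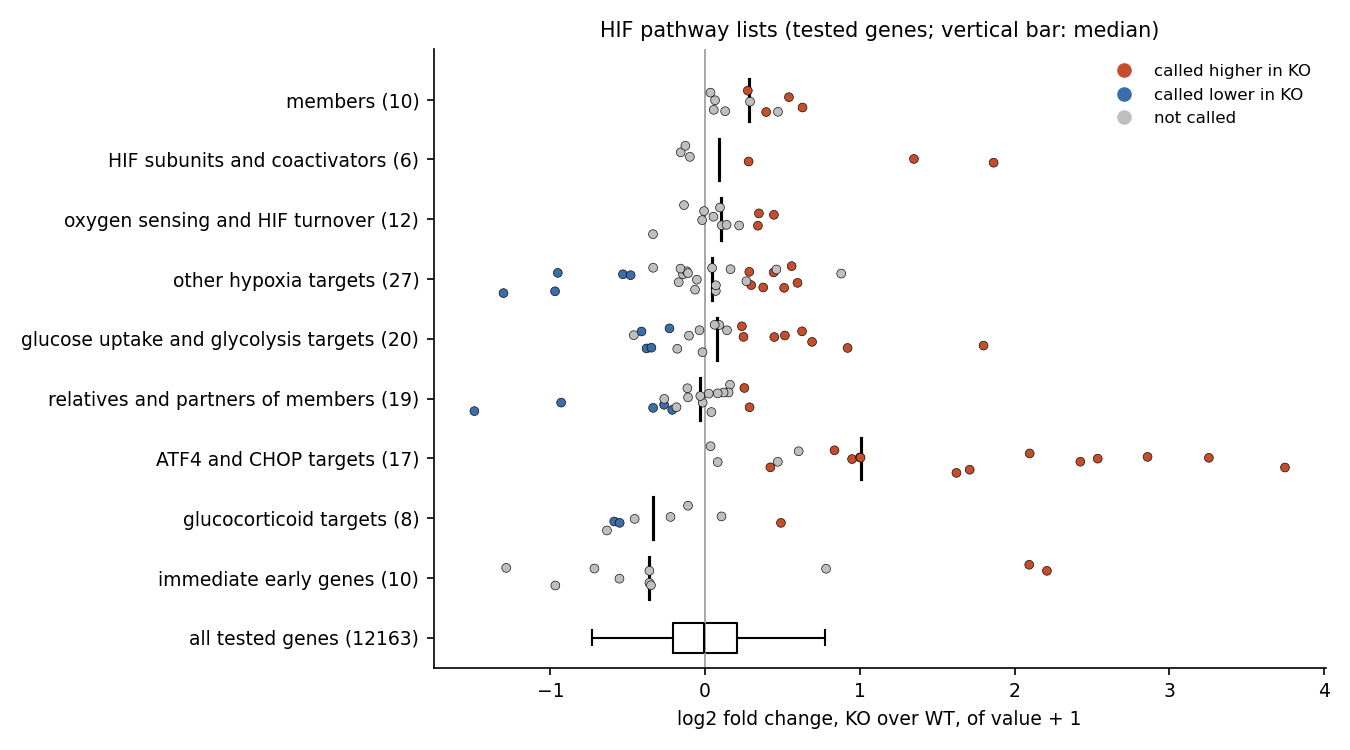
Log2 fold change, KO over WT, of value + 1 for each tested gene of the members and of 8 related lists, with the number tested in parentheses. Colours give the call, vertical bars each list's median, and the box at the foot shows all 12163 tested genes. The members' median is 0.28, and the lists of other hypoxia targets and of glycolysis hold calls in both directions.

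Relatives and protein partners of the members gave 2 higher and 5 lower calls among 19 tested genes (36.8%, against 38.7% of all tested genes). Their median log2 fold change was -0.03. Of the Mxi1 family, which shares the partner Max, Mxd4 fell to 53.5 ± 10.3 in KO, against 102 ± 8.72 in WT (log2 fold change -0.93, limma adjusted p = 0.000315). Mxd3 fell to 1.27 ± 0.502 in KO, against 5.41 ± 1.52 in WT (-1.49, or -0.72 at a pseudocount of 5, limma adjusted p = 0.000508). Mxi1 thus rose where both of these relatives fell. The Kdm3a relatives Kdm3b and Jmjd1c fell by 0.34 and 0.21 on the log2 scale (limma adjusted p = 0.00155 and 0.0242), the second call being lost without KO replicate 1 or 3 or both libraries numbered 4 (adjusted p of 0.0520 to 0.0622). Ndrg3, a relative of Ndrg1, averaged 80.9 ± 0.957 in KO and 66.2 ± 4.96 in WT (0.29, limma adjusted p = 0.00390). Plin2, the lipid droplet coat protein, averaged 1790 ± 134 in KO and 1500 ± 95.3 in WT (0.25, limma adjusted p = 0.0176), a call lost with quantile normalisation (0.0710) and without KO replicate 3 (0.0576) or WT replicate 2 (0.0557).

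Some members are also known targets of other stress pathways, whose genes are given beside them. Of 17 genes of the Atf4 and Ddit3 (CHOP) response, 13 rose in KO and 0 fell (76.5% called, against 38.7% of all tested genes). At an unadjusted p under 0.05, 14 were higher and 0 lower, and the list's median log2 fold change was 1.0. Atf4, its central transcription factor, averaged 277 ± 49.5 in KO and 142 ± 13.6 in WT (0.95, limma adjusted p = 0.000276). Ddit3, a factor known to induce Ero1l, averaged 24.5 ± 8.41 in KO and 6.49 ± 0.766 in WT (1.71, limma adjusted p = 0.000207). Among KO libraries, replicate 4 was the lowest for Ero1l, Hif1a, Atf4 (219 against 253 to 324) and Ddit3 (15.4 against 19.5 to 33.1). Among WT libraries, replicate 4 was the lowest for Ero1l (126 against 128 to 135) and Hif1a (128 against 134 to 148). In WT it was the highest for Atf4 (151 against 122 to 150) and Ddit3 (7.55 against 5.85 to 6.56). These ranks rest on 1 library per genotype, some of the gaps are small, and no relation between the genes was tested. Over all members, replicate 4 was the lowest KO library for 3 and the highest for 2, P4ha1 and Egln1. Asns, Trib3, Slc7a11, Mthfd2 and Atf5, enzymes, regulators and a transporter of the amino acid response, rose by 3.26, 3.75, 2.86, 2.54 and 2.10 on the log2 scale. Of 8 glucocorticoid targets 1 rose and 2 fell (37.5% called). Tsc22d3 fell by 0.55 and Klf9 fell by 0.59 on the log2 scale (limma adjusted p = 0.0279 and 0.0157). The Tsc22d3 call was lost without KO replicate 2 or 3, without WT replicate 1, 2 or 4 and without both libraries numbered 2 (adjusted p of 0.0587 to 0.143), and the Klf9 call without both numbered 4 (0.0507) or both numbered 2 (0.0669). Sgk1 passed narrowly (0.49, limma adjusted p = 0.0497) and lost its call in 13 alternatives. With the replicate block 1 of these 8 was higher and 4 were lower, in a fit that called 46.7% of all tested genes. Of the 10 genes in the immediate early list 2 were higher and 0 lower (20% called), with 0 lower also at an unadjusted p under 0.05. With the replicate block 3 were higher and 6 lower. The 2 genes higher without the block were the heat shock genes Hspa1a (2.21, limma adjusted p = 0.00361) and Hspa1b (2.09, limma adjusted p = 0.0227). They are near-identical copies whose reads may be shared. The other 8 genes of the list were not called in that fit. The Hspa1b call was lost without KO replicate 4, without WT replicate 1, 2 or 3 and without both libraries numbered 2 (adjusted p of 0.0536 to 0.109). The part of these pathways in the members' values was not tested.

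**Figure D5:**
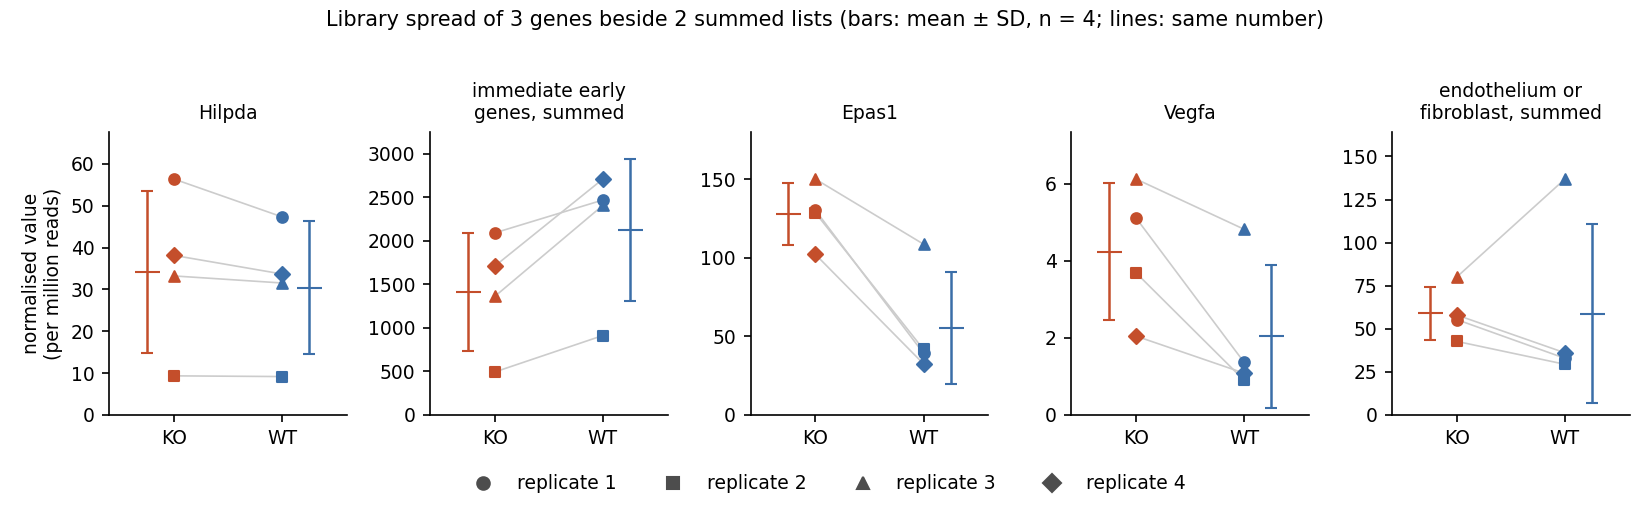
Normalised value (per-million-reads scale) in the 4 KO (left) and 4 WT (right) libraries for Hilpda, Epas1 and Vegfa, beside the summed immediate early genes and the summed endothelium or fibroblast markers; bars are mean ± SD and grey lines join same-numbered libraries. Hilpda and the immediate early sum are both lowest in replicate 2 of each genotype, and Epas1, Vegfa and the endothelium or fibroblast sum (137) are highest in replicate 3 among the WT libraries.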

How the data were processed

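The sample titles gave the genotype and number of the 8 libraries of sorted alveolar macrophages (4 KO, 4 WT). The submitters' processing notes list build GRCm38 and the tools CASAVA (1.8.2), cutadapt (1.7.1), RSEM (1.3.1) and limma. The aligner, annotation release and strand setting of the counting were not given in the sources used here, though the kit keeps strand, per the labels' protocols. Genes lie antisense to Hif1a, Higd1a, Mxi1 and Ndrg1, and whether their reads were kept apart is not known.

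The authors deposited 1 normalised signal value per gene and library. Within a column all values were odd multiples of the lowest, the pattern of a whole read number plus 0.5 on a per-million basis. The reads so obtained were whole for 100% of values (tolerance 0.01). They were not checked in any other way, gave the depths and the weights of 1 alternative and describe counting error only, since reads without molecular identifiers are not independent molecules.

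Fits used limma 3.58.1 (R 4.3.3) on log2(value + 1), with moderated variances following the mean-variance trend, two-sided p-values and Benjamini-Hochberg adjustment over the 12163 genes that reached a value of 1 in 4 or more libraries; 204 genes did not. Called means an adjusted p under 0.05. The members and all lists were chosen with earlier results of these data known, so no list was tested and counts are set beside those of all genes. Named genes are Tfam, Itgax, the members, up to 6 called genes of each pathway list by adjusted p, and 13 pathway genes fixed by name. The cell markers named and the genes set beside Hilpda in the closing part were added after their values were seen. For Hif1a the 3 genes of nearest profile are named too; the same for Mxi1 is not reported here. The fit was tested on simulated data with independent libraries, a fixed dispersion and no effect of the replicate number. That test therefore does not cover the joint deviation of same-numbered libraries seen here.

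KO and WT libraries with the same number deviated from their genotype means together (correlations of 0.363, 0.286, 0.394 and 0.431, against -0.374 to 0.0917 between different numbers), and each of the 8 libraries matched its own number best. What a number stands for is not in the labels. The pairing therefore comes from the data, and a replicate block was fitted as an alternative. Further alternatives dropped the filter, raised it to 8, used pseudocounts of 0.25 or 5, normalised by quantiles, centred on medians, left out the variance trend, asked for an adjusted p under 0.01, or left out each library or both numbered 4. Added after seeing the data were voom weights, the block without both libraries numbered 4, and leaving out both libraries numbered 2. Promoter windows are RefSeq sequences (GRCm38.p6); gene coordinates and exon lengths are from GENCODE vM21, of the same build.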

Additional observations from a re-analysis of the deposited data

Results flagged for a closer look

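In 8 of 112 groups of 4 libraries examined, over 56 genes, a single library lay far from the other 3 by Dixon's test, which chance alone gives in about 1 in 20 groups. All 8 were WT groups.

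Among the members, P4ha1 was at 97.3 in WT replicate 4, against 50.8 to 54.2 in the other WT libraries. Kdm3a was at 43.0 in WT replicate 1, against 38.6 to 39.3 in the others. WT replicate 3 was high for Epas1, at 109 against 32.5 to 41.6, for Vegfa, at 4.82 against 0.895 to 1.36, and for Asns, the asparagine synthetase, at 15.0 against 8.70 to 9.67. WT replicate 4 was low for Ldha, at 448 against 493 to 502. It was high for the heat shock genes Hspa1a, at 8.31 against 1.3 to 2.19, and Hspa1b, at 18.9 against 1.66 to 3.57.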

How the results depend on the processing

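The calls of Ero1l and Mxi1 held in all 21 alternatives, and the count of members called higher ran from 2 to 5 against 4. At an adjusted p under 0.01, 3056 genes were called, 1513 higher and 1543 lower, and 2 members, 2 higher. Without both libraries numbered 2, 1605 genes were called lower, against 2580 without both numbered 4; the cause was not tested. With the replicate block 5682 genes and 5 members were called, and the block changed no other member's call than that of P4ha1 (adjusted p = 0.00878). Leaving out 1 library gave 3822 to 4699 called genes, 3 to 5 called members, Tfam between -2.62 and -2.47 and Itgax between 0.86 and 0.97.

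Some small differences that were not called changed sign. Leaving out single libraries gave -0.0158 to 0.0654 for Higd1a, -0.0119 to 0.0950 for Kdm3a, -0.35 to 0.64 for Hilpda, -0.00655 to 0.0886 for Vhl and -0.0871 to 0.0203 for Egln2. Kdm3a was -0.0186 without both libraries numbered 2. Egln2 was 0.00791 with quantile normalisation, 0.00299 with median centring, 0.00690 without both libraries numbered 4 (with and without the replicate block) and 0.0268 without both numbered 2. The cause was not tested.

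Over the 43 other named genes and 20 or 21 alternatives each, 824 of 896 values kept their direction and side of the threshold, 50 lost and 14 gained a call, and 8 changed sign. Of 336 counts over the pathway lists, 288 stayed within 1.5 times the reported count. Median centring moved the median of all genes from -0.00633 to 0.0159 and the share of calls that were higher from 48.4% to 53.2%. Under a minimum of 8, Ndrg1 and Ddit4 were not tested. The planned edgeR test on read numbers was not run, since the table holds too few low values to check the read numbers beyond their spacing, on which all read numbers given here rest. Depth limits Ndrg1 (15 to 51 reads per library) and Ddit4 (41 to 90 reads) most.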

Other observations

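Hilpda varied by library number more than by genotype, and the tested genes whose profile over the 8 libraries lay nearest to it were looked up after its values were seen. They were Ccrl2, an atypical chemokine receptor (root mean square difference of centred log2 values 0.208), Nfkbiz, a nuclear regulator of NF-kappaB (0.341), and Cd14, the co-receptor for lipopolysaccharide (0.348). Ccrl2 was at 86.3, 22.3, 56.4 and 80.0 in KO replicates 1 to 4, against 70.6, 18.1, 60.4 and 71.8 in WT replicates 1 to 4. Nfkbiz was at 50.0, 5.86, 12.8 and 17.8 in KO replicates 1 to 4, against 31.3, 4.04, 15.3 and 16.2 in WT replicates 1 to 4. Cd14 was at 299.7, 64.8, 149 and 175 in KO replicates 1 to 4, against 275, 101, 194 and 195 in WT replicates 1 to 4. Replicate 1 was the highest and replicate 2 the lowest in both genotypes for Nfkbiz and Cd14, as for Hilpda.

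The members did not share 1 extreme library. Replicate 1 was the highest KO library for 3 members, replicate 2 for 1, replicate 3 for 4 and replicate 4 for 2, and among WT libraries the counts were 4, 1, 2 and 3.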
